A study of Mus musculus with 12 samples.

Results

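The genes described here are 9 genes of striatal projection neurons, Drd1, Drd2, Adora2a, Gpr6, Rgs9, Ppp1r1b, Pde10a, Penk and Tac1, measured in libraries made from cortex. They were taken by symbol, 9 of 24411 gene symbols in the table, and they were chosen by their measured counts, which are high in 1 library, stressed KO library 1. That elevation is therefore described without a test, and the tests of this section leave that library out. The libraries come from the medial prefrontal cortex (mPFC) of female mice aged 8 to 12 weeks, in 4 groups of 3. Stressed KO mice are Cav3.1 KO mice (knockout of Cacna1g, which encodes a T-type calcium channel, on a C57BL/6J background, with no restriction to a cell type named, from a bioresource centre). Chronic stress meant 1 daily session of forced swimming or of hanging by the tail, on 5 days. Unstressed KO mice are of the same line and had no such sessions. Stressed WT mice are C57BL/6J bought from a breeder and had the same 5 days of sessions, and unstressed WT mice had none. Genotype and source of the mice go together, so they cannot be told apart. Whether each library is a different mouse is not stated in the labels, so the p-values speak only of spread among libraries, which may be technical.

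Projection neurons make up most neurons of the striatum, which lies beneath the frontal cortex, and they are inhibitory cells driven by dopamine and glutamate. Those of the direct pathway carry the D1 dopamine receptor and the peptide substance P, and those of the indirect pathway carry the D2 dopamine receptor, an adenosine receptor and enkephalin. Both kinds share a machinery for cyclic AMP (cAMP) signalling, with DARPP-32 (the product of Ppp1r1b), the phosphodiesterase PDE10A and the G-protein regulator RGS9. Part of this set is also made by cortical neurons, such as Drd1 and Ppp1r1b in deep layers and Penk and Tac1 in subsets of interneurons, whereas Drd2, Adora2a and Gpr6 are commonly used as striatal genes.

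All 12 libraries carried cortical markers, and library totals ran from 15469590 to 31082240 estimated counts. The summed level of 12 cortical excitatory neuron markers was 3273 CPM (counts scaled to a common library total, with TMM factors) in stressed KO library 1, against 2315 to 4190 CPM in the other 11. The targeted gene, Cacna1g, stood at 58.5 CPM in stressed KO library 1 and between 54.6 and 65.95 CPM in the other 5 KO libraries, against 109 to 144 CPM in the 6 WT libraries, so this library matched its genotype label. Unstressed WT libraries 1 and 2 stand apart in another way. Their 9 olfactory bulb markers summed to 1027 and 1069 CPM, against 26.1 CPM in stressed KO library 1 and 27.4 to 137 CPM in the other 9 libraries. The tests that use unstressed WT are given with and without those 2 libraries.

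The 9 genes together summed to 791 CPM in stressed KO library 1, against 228 to 281 CPM in the other 11 libraries. All 9 were highest in that library, and 7 of 9 were at least 2-fold above the highest of the other 11. Of all 15199 genes with enough counts, 53 (0.349%) met the same 2-fold rule. The members were chosen for this pattern, so nothing is read from that difference. In 8 of the other libraries the 2-fold rule was met by 1 to 21 genes, none of them a member, and in 3 by no gene.

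**Figure D1:**
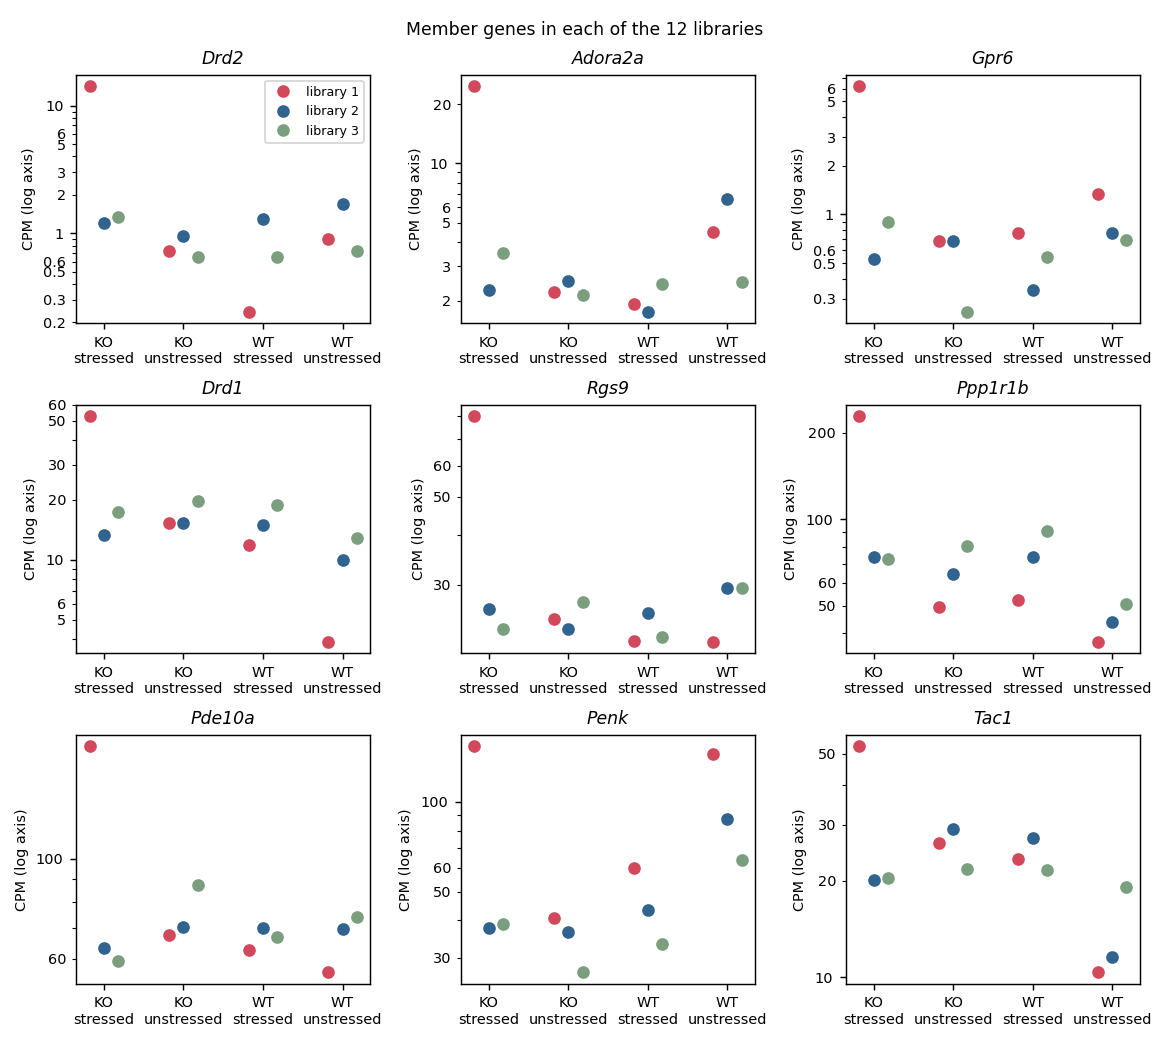
CPM of each of the 9 genes (log axis) in the 12 libraries, by group, with 1 point per library and the colour giving the library number. Stressed KO library 1 is the highest point in every panel, and in the Penk panel it lies only a little above unstressed WT library 1 (153 against 145 CPM).

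The 3 genes treated as restricted to striatum stood out most. Drd2, the D2 dopamine receptor of the indirect pathway, stood at 14.3 CPM in stressed KO library 1 and at 1.21 and 1.34 CPM in stressed KO libraries 2 and 3. It was 0.724, 0.958 and 0.648 CPM in unstressed KO, 0.241, 1.28 and 0.648 CPM in stressed WT and 0.895, 1.69 and 0.729 CPM in unstressed WT. The remaining 11 libraries lay between 0.241 and 1.69 CPM, and stressed KO library 1 was 16.0-fold above their median and 8.49-fold above the highest of them. Adora2a, an adenosine receptor that raises cAMP, stood at 24.8, 2.27 and 3.52 CPM in stressed KO libraries 1 to 3. It was 2.21, 2.51 and 2.14 CPM in unstressed KO, 1.93, 1.76 and 2.42 CPM in stressed WT and 4.47, 6.59 and 2.48 CPM in unstressed WT. Unstressed WT libraries 1 and 2, the libraries with olfactory bulb markers, were next highest, and stressed KO library 1 was 10.2-fold above the median of the others.

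Gpr6, an orphan receptor that raises cAMP and is found in neurons of the indirect pathway, stood at 6.23, 0.530 and 0.897 CPM in stressed KO libraries 1 to 3. It was 0.686, 0.684 and 0.249 CPM in unstressed KO, 0.764, 0.343 and 0.546 CPM in stressed WT and 1.34, 0.766 and 0.695 CPM in unstressed WT. Stressed KO library 1 was 9.08-fold above the median of the others and 4.64-fold above the highest. These 3 genes were not absent from the other cortex libraries, in which each had at least 5 counts. A count of 3 corresponds to between 0.0920 and 0.192 CPM in these libraries, a limit that covers counting error only, so their levels elsewhere were low but above it. In bulk tissue more cells of a type and more RNA per cell cannot be told apart.

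Starts of transcription are shown for 2 of the 3 restricted genes, Drd2 and Gpr6, and for 2 of the direct pathway genes that cortex also makes, Drd1 and Tac1, so that the sequences of genes that were high in the same library can be read side by side. The windows are from RefSeq on GRCm38.p6 and hold 250 bases before and 50 after the start; 6 of the 9 genes matched the table by symbol. Capitals mark a GC box (GGGCGG, or CCGCCC on the other strand), a cAMP response element (TGACGTCA, the same on both strands) or its half-site (TGACG, or CGTCA on the other strand), which is also contained in the full element.
Drd2, chr9:49340153-49340452, plus strand: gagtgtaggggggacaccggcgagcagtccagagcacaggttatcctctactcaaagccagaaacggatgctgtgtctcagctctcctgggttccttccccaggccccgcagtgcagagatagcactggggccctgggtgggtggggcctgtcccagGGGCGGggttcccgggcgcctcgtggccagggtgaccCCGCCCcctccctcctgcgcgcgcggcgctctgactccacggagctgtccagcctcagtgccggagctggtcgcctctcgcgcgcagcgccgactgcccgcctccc
Gpr6, chr10:41072241-41072540, minus strand: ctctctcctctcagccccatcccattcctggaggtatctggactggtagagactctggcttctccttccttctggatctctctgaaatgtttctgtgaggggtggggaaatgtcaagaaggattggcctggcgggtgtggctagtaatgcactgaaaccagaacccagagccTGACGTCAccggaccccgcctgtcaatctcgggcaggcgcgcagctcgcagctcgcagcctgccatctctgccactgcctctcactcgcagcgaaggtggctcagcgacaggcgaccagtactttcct
Drd1, chr13:54055609-54055908, minus strand: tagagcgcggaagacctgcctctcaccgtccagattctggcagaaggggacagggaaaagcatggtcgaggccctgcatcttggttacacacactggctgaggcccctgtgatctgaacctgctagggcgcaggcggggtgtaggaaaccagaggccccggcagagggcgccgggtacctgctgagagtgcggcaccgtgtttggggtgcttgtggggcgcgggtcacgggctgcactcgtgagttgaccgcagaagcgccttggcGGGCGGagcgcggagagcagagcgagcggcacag
Tac1, chr6:7554811-7555110, plus strand: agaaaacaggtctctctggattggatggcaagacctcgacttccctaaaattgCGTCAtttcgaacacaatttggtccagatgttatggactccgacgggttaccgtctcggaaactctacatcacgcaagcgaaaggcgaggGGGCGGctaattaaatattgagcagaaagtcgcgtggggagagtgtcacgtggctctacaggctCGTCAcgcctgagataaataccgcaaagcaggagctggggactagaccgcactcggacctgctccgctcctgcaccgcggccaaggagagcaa
The full cAMP response element was found at position 173 of the Gpr6 window, counted from 1 at its 5′ end, and in no other window of the 6 matched genes; 1.79% of all 32851 promoter windows hold it. The half-site was found in the Gpr6 and Tac1 windows and in 20.8% of all windows. A GC box was found in 7 of 8 windows of the 6 matched genes, those of Drd2, Drd1 and Tac1 among them and not that of Gpr6, against 35.7% of all windows. None of the searched elements is in all 4 windows, and such matches describe letters, not binding.

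The 6 genes that cortex also makes were raised by smaller factors from higher levels. Drd1, the D1 dopamine receptor of the direct pathway, stood at 52.8, 13.3 and 17.3 CPM in stressed KO libraries 1 to 3. It was 15.3, 15.3 and 19.8 CPM in unstressed KO, 11.8, 14.9 and 18.9 CPM in stressed WT and 3.85, 9.96 and 12.9 CPM in unstressed WT. Stressed KO library 1 was 3.54-fold above the median of the others, and unstressed WT library 1 was the lowest library. Tac1, the precursor of substance P and neurokinin A, stood at 52.7, 20.2 and 20.4 CPM in stressed KO, 26.3, 29.0 and 21.7 CPM in unstressed KO, 23.5, 27.1 and 21.7 CPM in stressed WT and 10.4, 11.6 and 19.1 CPM in unstressed WT. Its factor over the median, 2.43, was the smallest of the 9, and it was 1.82-fold above the highest other library.

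Penk, the precursor of the enkephalins, stood at 153, 37.8 and 38.8 CPM in stressed KO libraries 1 to 3 and 40.7, 36.5 and 26.8 CPM in unstressed KO. It was 60.0, 43.3 and 33.3 CPM in stressed WT and 145, 87.7 and 63.7 CPM in unstressed WT. Stressed KO library 1 was 3.77-fold above the median of the others but only 1.06-fold above unstressed WT library 1, so Penk did not set that library apart from all others as the other 8 genes did.

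Among the shared signalling genes, Ppp1r1b encodes DARPP-32, an inhibitor of protein phosphatase 1 that is switched on by cAMP-dependent kinase. It stood at 229, 73.8 and 72.4 CPM in stressed KO, 49.6, 64.2 and 80.9 CPM in unstressed KO, 52.1, 73.6 and 90.7 CPM in stressed WT and 37.3, 43.7 and 50.6 CPM in unstressed WT. Pde10a, a phosphodiesterase that breaks down cAMP and cyclic GMP, stood at 178, 63.5 and 59.2 CPM in stressed KO, 67.5, 70.5 and 87.3 CPM in unstressed KO, 62.8, 70.1 and 67.1 CPM in stressed WT and 55.9, 69.9 and 74.2 CPM in unstressed WT. Rgs9, which shortens signalling by inhibitory G proteins, stood at 80.0, 26.0 and 23.2 CPM in stressed KO, 24.6, 23.2 and 27.0 CPM in unstressed KO, 21.6, 25.4 and 22.2 CPM in stressed WT and 21.5, 29.4 and 29.4 CPM in unstressed WT. Stressed KO library 1 was 3.56-fold, 2.63-fold and 3.25-fold above the median of the others for Ppp1r1b, Pde10a and Rgs9. Rgs9 was the most even of the 9 elsewhere, between 21.5 and 29.4 CPM in 11 libraries.

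The order of the genes depends on whether a factor or a difference is read. By factor over the median of the other 11 libraries the order was Drd2, Adora2a, Gpr6, Penk, Ppp1r1b, Drd1, Rgs9, Pde10a and Tac1. By difference in CPM it was Ppp1r1b (165 CPM above the median), Penk (113 CPM), Pde10a (110 CPM), Rgs9 (55.4 CPM), Drd1 (37.9 CPM), Tac1 (31.0 CPM), Adora2a (22.4 CPM), Drd2 (13.4 CPM) and Gpr6 (5.55 CPM). The 3 restricted genes thus led by factor and came last by difference. Per kilobase of annotated exon (GENCODE release M21), the difference was 69.0 CPM per kb for Penk and 56.2 CPM per kb for Ppp1r1b. It lay between 3.11 and 10.4 CPM per kb for the other 7, with Drd1 at 10.4 and Tac1 at 9.12 against Adora2a at 7.32, Drd2 at 5.27 and Gpr6 at 3.11 CPM per kb. Levels in the other 11 libraries on the same scale had medians of 24.9 CPM per kb for Penk and 21.9 for Ppp1r1b, and of 0.351 for Drd2, 0.384 for Gpr6 and 0.791 for Adora2a.

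**Figure D2:**
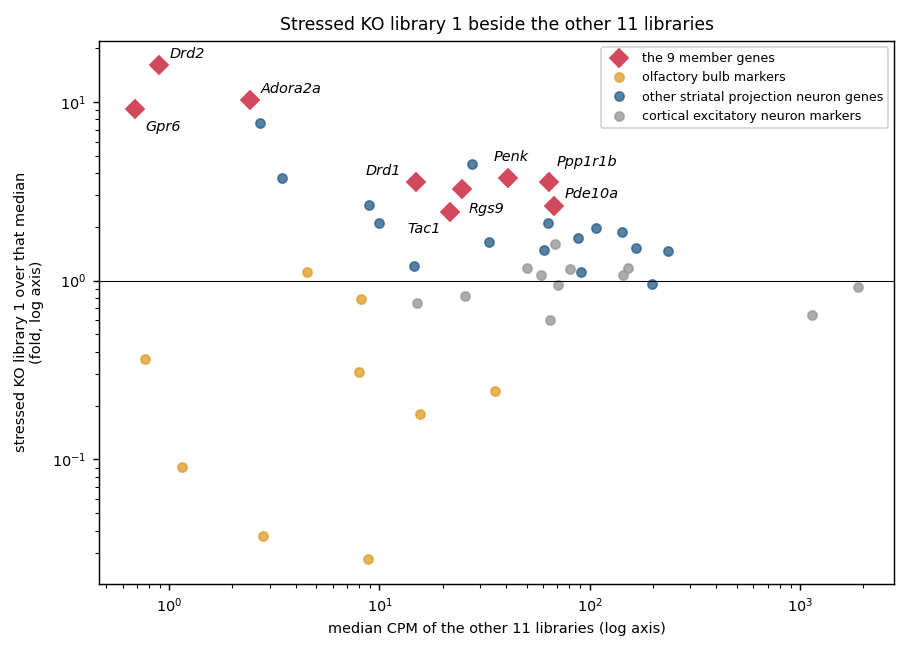
Fold of stressed KO library 1 over the median of the other 11 libraries (log axis) against that median in CPM (log axis), 1 point per gene, for the 9 genes, other striatal projection neuron genes, cortical excitatory neuron markers and olfactory bulb markers with enough counts. Drd2, Adora2a and Gpr6 lie at the upper left, between 9.08-fold and 16.0-fold, and the other 6 members between 2.43-fold and 3.77-fold at higher levels.

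Markers of both projection pathways were high in the same library. The ratio of Drd1 to Drd2 in CPM was 3.69 in stressed KO library 1, below the range of 4.31 to 49.0 in the other 11, since Drd2 was raised by the larger factor. The ratio of Tac1 to Penk was 0.343 there, within the range of 0.0714 to 0.810 of the others. Drd1 to Tac1 stood at 1.00, above the range of 0.372 to 0.913, and Drd2 to Adora2a at 0.576, within the range of 0.125 to 0.732.

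Further genes of these neurons followed in part. Of 16 other genes of projection neurons of both pathways, 12 were highest in stressed KO library 1, with a median of 1.80-fold over the others (0.994-fold over all 15199 genes). Of all genes, 1167 (7.68%) were highest in that library. Syndig1l, a synaptic membrane protein, stood at 20.4 CPM there, against 1.63 to 22.8 CPM in the others (median 2.69 CPM). Lrrc10b stood at 13.0 CPM against 1.64 to 4.75 CPM in the others, and Rarb, a retinoic acid receptor, at 23.8 against 6.995 to 11.5 CPM (Rarb overlaps Top2b on the other strand, and whether counting used strand is not stated). Meis2, a transcription factor of ventral forebrain neurons that olfactory bulb cells also make, was not raised, at 190 CPM against 161 to 581 CPM.

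Of 8 further direct pathway genes 7 had enough counts, and 2 of 7 were highest in stressed KO library 1. Foxp2, a transcription factor, stood at 46.0 CPM against 12.5 to 30.4 CPM, and Pdyn, the precursor of dynorphin, at 55.4 against 18.8 to 31.2 CPM. Slc35d3 stood at 7.03 CPM, within the range of 0.648 to 14.9 CPM of the others but above their median of 1.64 CPM. Isl1, a transcription factor of direct pathway and cholinergic neurons, had too few counts to be tested, with 92 counts in stressed KO library 1 and 0 to 13 in the others. Of 6 indirect pathway genes 5 had enough counts and 2 of 5 were highest there, Gpr52 at 10.7 against 3.41 to 7.98 CPM and Grik3 at 234 against 128 to 231 CPM. Ptprm, a receptor phosphatase, was lowest there, at 33.5 against 35.8 to 78.8 CPM, and Plxdc1 stood at 24.0 against 11.7 to 32.3 CPM. Six3, a transcription factor of indirect pathway neurons, was left out by the filter on low counts. It had 234 counts (8.15 CPM) in stressed KO library 1 and 0 to 5 counts in the others, with none in 5 of them. Six3 overlaps Six3os1 on the other strand, which had 72 counts there and at most 2 elsewhere. Sp9, of the same pathway, stood at 8.15 CPM, within the range of 2.56 to 39.7 CPM of the others but above their median of 4.06 CPM. It overlaps Cir1 on the other strand.

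Markers of other striatal cells were high in the same library. All 5 cholinergic interneuron markers were highest in stressed KO library 1, with a summed level of 9.40 CPM against 1.28 to 2.12 CPM, though 2 of 5 had enough counts to be tested. Slc5a7, the choline transporter, had 153 counts there and 19 to 46 in the others, Chat, which makes acetylcholine, had 44 against 1 to 13, and Lhx8 had 26 against 0 to 1. Chat overlaps Slc18a3, so reads of the pair may be shared. Of 4 markers of ventral striatum and islands of Calleja, summed at 23.5 against 3.14 to 8.50 CPM, all 3 with enough counts were highest there. Dlk1 gave 12.6 CPM of that sum, and Cartpt was only a little above the others, at 6.27 against at most 6.06 CPM. Drd3, the D3 receptor, had 13 counts against 0 to 5. Oligodendrocyte markers summed to 2847 CPM in stressed KO library 1, which was exceeded only by 3427 CPM in stressed WT library 3, a library with 3.62 CPM of the 3 restricted genes against 45.4 CPM in stressed KO library 1. Septal markers summed to 81.5 CPM, within the range of 37.9 to 145 CPM, but only unstressed WT libraries 1 and 2 were higher (131 and 145 CPM). The next highest of the others, unstressed WT library 3, had 61.7 CPM. Claustral markers summed to 221 CPM, within 201 to 590 CPM. The claustral score (mean log2 CPM, centred over the libraries) was above all others, however, at 0.24 against at most 0.08, with 3 of 6 genes highest there. Cortical interneuron markers summed to 1185 CPM, within 946 to 2168 CPM, and meningeal markers to 44.7 CPM, within 40.5 to 304 CPM but with a score of -1.18 below the lowest other of -1.13. Choroid plexus markers summed to 9.47 CPM, above the 1.89 to 8.03 CPM of the others. Among them Clic6 (3.80 against at most 2.12 CPM) and Otx2 (0.348 against at most 0.241 CPM) were highest there. Kl (4.98 against at most 5.09 CPM), Ttr (0.139 against at most 0.491 CPM), Folr1 and Kcne2 were not. The part of these other tissues in the levels of the 9 genes was not tested.

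**Figure D3:**
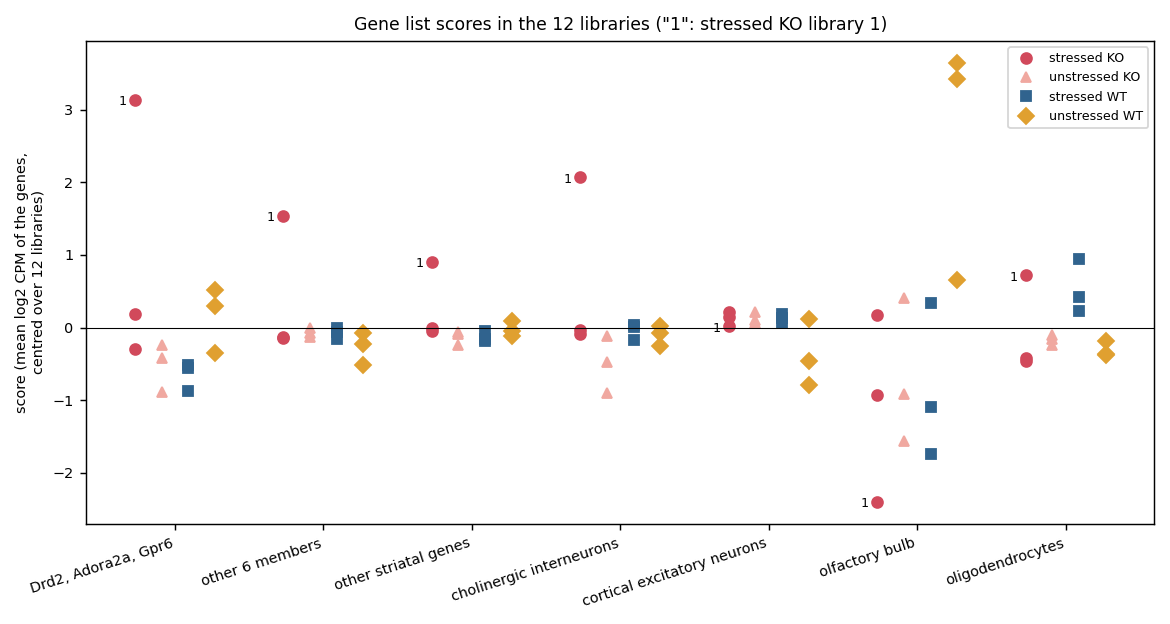
Score of each gene list (mean log2 CPM of its genes with enough counts, centred over the 12 libraries) in every library, by group, with stressed KO library 1 marked 1. It scored 3.13 for Drd2, Adora2a and Gpr6 and 1.53 for the other 6 members, against at most 0.52 and -0.0027 in the other libraries, while its cortical excitatory score of 0.02 lay within their range and its olfactory bulb score of -2.40 lay below it.

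Receptors, relatives and signalling partners of the members moved less. Of 31 relatives and receptors with enough counts, 10 were highest in stressed KO library 1 0 were 2-fold above all others, and 6 were lowest there, with a median of 1.08-fold. Oprk1, the receptor for dynorphin, stood at 16.1 against 2.20 to 11.5 CPM, and Drd5, the D5 receptor, at 9.85 against 1.82 to 8.32 CPM. The 6 lowest were Rgs4, a regulator of G proteins, at 321 against 390 to 735 CPM, the cAMP phosphodiesterases Pde4a, Pde4b and Pde4d, the adenosine receptor gene Adora2b and the dopamine receptor gene Drd4. Of 26 cAMP and dopamine signalling partners, 2 were highest and 1 was lowest there, with a median of 1.01-fold. The lowest was Adcy2, an adenylyl cyclase, at 174 against 194 to 236 CPM. The highest were Prkar2b, a regulatory subunit of cAMP-dependent kinase, at 120 against 62.5 to 108 CPM and Arpp21 at 512 against 350 to 469 CPM.

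Because stressed KO library 1 enters these comparisons, group differences of the 9 genes with stress in KO depend on it. With all 12 libraries the log2 fold change of stressed against unstressed KO was 2.89 for Drd2, 2.19 for Adora2a and 2.27 for Gpr6. Without that library it was 0.71 ± 0.55 (SE), 0.32 ± 0.37 and 0.34 ± 0.53. Signs turned for Drd1 (0.74 with, -0.14 without), for Rgs9 (0.80 with, -0.02 without), for Pde10a (0.42 with, -0.29 without) and for Tac1 (0.29 with, -0.34 without).

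Without stressed KO library 1, stress in KO mice changed none of the 9 genes past the threshold. In edgeR's quasi-likelihood test on 11 libraries, with Benjamini-Hochberg adjustment over 15360 genes and an adjusted p under 0.05, 0 of 9 members were called, against 5 of all genes (0.0326%; 2 higher, 0.0130%, and 3 lower, 0.0195%); 1358 genes had an unadjusted p under 0.05, and DESeq2 called 0 of the 7 members to which it gave an adjusted p, which leaves out Drd2 and Gpr6. Pde10a had the smallest unadjusted p of the 9, with 61.3 ± 3.06 CPM in stressed KO (SD, n = 2) and 75.1 ± 10.7 CPM in unstressed KO (SD, n = 3) and a log2 fold change of -0.29 ± 0.13 (SE, edgeR adjusted p = 0.569). Drd2 averaged 1.28 ± 0.0986 CPM in stressed KO (n = 2) and 0.777 ± 0.162 CPM in unstressed KO (n = 3), which did not overlap, and its edgeR adjusted p was 0.743. Pde10a and Tac1 did not overlap either, both lower in stressed KO, and the other 6 genes overlapped. The share of all genes whose groups did not overlap was not counted, so nothing is read from these separations. Likewise 0 of 9 members were called between stressed KO and stressed WT without that library, against 25 of all genes (0.163%; 8 higher, 0.0521%, and 17 lower, 0.111%) in edgeR's test, and DESeq2 called 0 of 9 members; 1753 genes had an unadjusted p under 0.05. Log2 fold changes in that comparison ran from -0.25 for Penk to 0.82 ± 0.55 (SE) for Drd2, with edgeR adjusted p between 0.638 and 1. With 2 stressed KO libraries these tests have little precision for Drd2 and Gpr6, which had 5 to 55 counts a library.

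In WT mice, 4 of 9 members differed between stressed and unstressed mice, 2 higher and 2 lower, where 22.2% of all genes were called (3406; 1502 higher, 9.78%, and 1904 lower, 12.4%). No test was made of the count of members against that share. Penk and Adora2a were lower in stressed WT, and by less without unstressed WT libraries 1 and 2 (log2 fold change -0.49 and -0.28). Penk averaged 45.5 ± 13.5 CPM in stressed WT and 98.8 ± 41.8 CPM in unstressed WT (SD, n = 3 each), with a log2 fold change of -1.12 ± 0.28 (SE, edgeR adjusted p = 0.0240). Adora2a averaged 2.04 ± 0.346 CPM in stressed WT and 4.52 ± 2.05 CPM in unstressed WT (SD, n = 3 each), with a log2 fold change of -1.14 ± 0.31 (SE, edgeR adjusted p = 0.0286). Tac1 and Ppp1r1b were higher. Tac1 averaged 24.1 ± 2.77 CPM in stressed WT and 13.7 ± 4.76 CPM in unstressed WT (SD, n = 3 each), with a log2 fold change of 0.82 ± 0.20 (SE, edgeR adjusted p = 0.0216). Ppp1r1b averaged 72.1 ± 19.3 CPM in stressed WT and 43.9 ± 6.69 CPM in unstressed WT (SD, n = 3 each), with a log2 fold change of 0.72 ± 0.21 (SE, edgeR adjusted p = 0.0338). Groups did not overlap for these 4 genes, but the share of all genes without overlap was not counted, so nothing is read from this. Drd1 had a log2 fold change of 0.77 ± 0.34 and did not pass (edgeR adjusted p = 0.113), nor did Drd2, Gpr6, Rgs9 and Pde10a, at -0.62, -0.74, -0.21 and 0.002.

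The same unstressed WT libraries are the base of the comparison of genotypes without stress, so these 2 comparisons share them and are not independent. There 3 of 9 members were called, 1 higher and 2 lower in KO, against 23.6% of all genes (3620; 1702 higher, 11.1%, and 1918 lower, 12.5%). Penk averaged 34.7 ± 7.14 CPM in unstressed KO and 98.8 ± 41.8 CPM in unstressed WT (SD, n = 3 each), with a log2 fold change of -1.51 ± 0.29 (SE, edgeR adjusted p = 0.0126). Adora2a averaged 2.29 ± 0.195 CPM in unstressed KO and 4.52 ± 2.05 CPM in unstressed WT, with a log2 fold change of -0.98 ± 0.31 (edgeR adjusted p = 0.0449), and its groups overlapped. Tac1 averaged 25.7 ± 3.69 CPM in unstressed KO and 13.7 ± 4.76 CPM in unstressed WT, with a log2 fold change of 0.91 ± 0.20 (edgeR adjusted p = 0.0161). Drd1 (0.91 ± 0.34, edgeR adjusted p = 0.0698) and Ppp1r1b (0.57 ± 0.21, edgeR adjusted p = 0.0694) did not pass. Groups did not overlap for Penk, Tac1, Drd1 and Gpr6. The share of all genes without overlap was not counted here either, so nothing is read from this.

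**Figure D4:**
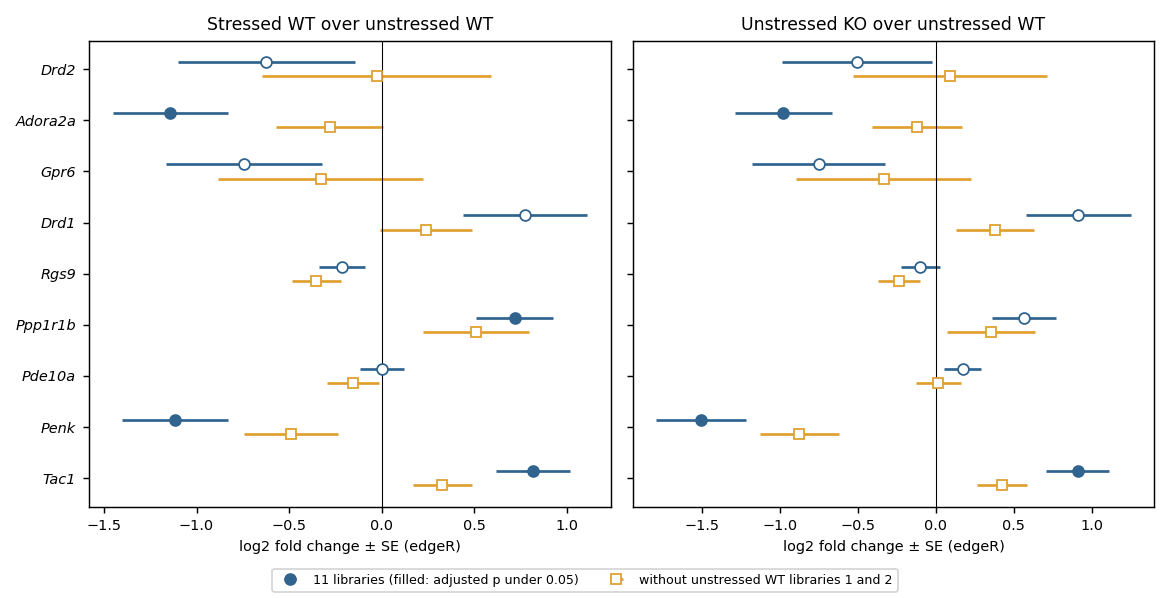
Log2 fold change of the 9 genes with its standard error in edgeR's fit of 11 libraries (circles, filled where the adjusted p is under 0.05) and without unstressed WT libraries 1 and 2 (squares), for stressed over unstressed WT at the left and unstressed KO over unstressed WT at the right. Without those libraries Adora2a lies at -0.28 and -0.12 and Penk at -0.49 and -0.88, and no gene is called.

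Unstressed WT libraries 1 and 2 held the highest Adora2a and Penk and the lowest Tac1 among the 11 libraries, beside olfactory bulb sums of 1027 and 1069 CPM and cortical excitatory sums of 2315 and 2706 CPM, against 3376 to 4190 CPM in the other 9. Without them 0 of 9 members were called in either comparison, and of all genes 3 were called for stress in WT and 28 for genotype; 1 library then stands for unstressed WT and is assumed to vary like the other groups. In unstressed WT library 3 alone, Adora2a (2.48 CPM) lay at the level of the other groups, while Penk (63.7 CPM) was above all KO libraries of the test and all stressed WT libraries, and Tac1 (19.1 CPM) was below them all. With unstressed WT library 2 left out, 0 members were called in both comparisons, and for stress in WT also without unstressed WT library 1 or stressed WT library 2, and 1 member without stressed WT library 3. Of all genes, 2 (stress in WT) and 117 (genotype) were called without unstressed WT library 2. For stress in WT 1010 genes were called without unstressed WT library 1, 1 without stressed WT library 2 and 1555 without stressed WT library 3. For genotype 1 member was called without unstressed KO library 2, against 795 of 15364 genes. Without unstressed WT library 3, 5 members were called for genotype, against 6027 of 15314 genes. Leaving out any 1 of 10 of the 11 libraries ended the Adora2a call for genotype. Markers of other cells moved in the same comparisons. All 9 olfactory bulb markers were lower in stressed WT and in unstressed KO than in unstressed WT (median log2 -3.46 and -3.30), as were 9 of 10 meningeal markers (-1.81 and -1.54). Of 12 oligodendrocyte markers, 11 were higher in stressed WT (median 0.91) and 0 were called in unstressed KO. Of 9 cortical interneuron markers, 3 were higher, among them Pvalb (1.35) and Sst (0.99), and 4 were lower in stressed WT, among them Gad1 (-1.21) and Gad2 (-0.76), and 2 were higher and 4 lower in unstressed KO. Without unstressed WT libraries 1 and 2, 0 markers of these 4 lists were called in either comparison; the oligodendrocyte median was then 0.89 in stressed WT. The part of these cells in the values of the 9 genes was not tested.

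The difference between the stress effects in KO and in WT passed for 0 of 9 members, against 1 of all genes (0.00651%) in edgeR's test, with 3816 genes at an unadjusted p under 0.05. Tac1 had the smallest p of the 9, with a log2 difference of -1.16 ± 0.31 (SE, edgeR adjusted p = 0.0868), followed by Adora2a (1.47 ± 0.48, 0.118) and Penk (1.26 ± 0.43, 0.124). DESeq2 called Penk and Tac1 in this comparison, with adjusted p of 0.0370 and 0.0106, among 1136 of all genes. Without unstressed WT library 3 edgeR called 3 members and 3442 genes, and without unstressed WT libraries 1 and 2 it called 0 members and 0 genes.

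Other genes of the pathways were also called in the 2 comparisons with unstressed WT, in which 22.2% (stress in WT) and 23.6% (genotype without stress) of all genes were called. Of 16 projection neuron genes of both pathways, 1 was higher and 3 were lower in stressed WT (median log2 -0.04; 0.002 over all genes). These were Scn4b, a sodium channel subunit, at 1.53 ± 0.24 (SE), and Syndig1l (-2.60), Meis2 (-1.03) and Actn2 (-0.63). Between unstressed KO and unstressed WT, 2 were higher, Scn4b at 1.15 and Bcl11b, a transcription factor, at 0.27, and 4 were lower, Syndig1l (-2.28), Meis2 (-1.06), Lrrc10b (-0.68) and Actn2 (-0.62). Of 7 direct pathway genes, Slc35d3 (-2.69), Ebf1 (-1.08) and Eya1 (-0.76) were lower in stressed WT, and Slc35d3 (-2.52) and Chrm4 (-0.37) in unstressed KO. Of 5 indirect pathway genes, Plxdc1 was higher (0.88 and 0.74) and Ptprm lower (-0.74 and -0.75) in the 2 comparisons, and Sp9 was lower in unstressed KO (-2.51). Without unstressed WT libraries 1 and 2, an alternative chosen for these lists after seeing the data, 0 genes of the 3 lists were called in either comparison. Scn4b then stood at 1.01 (edgeR adjusted p = 0.0913) in stressed WT and 0.64 (0.165) in unstressed KO. Syndig1l stood at -0.42 and -0.10, Slc35d3 at -0.89 and -0.72, Meis2 at -0.23 and -0.25, and Ebf1 at 0.04 in stressed WT. Stress in KO and genotype with stress, both without stressed KO library 1, called 0 genes of these 3 lists.

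Across libraries the 9 genes did not vary as 1 set once stressed KO library 1 was left out. The median Pearson correlation of log2 CPM over the 36 pairs was 0.72 over 12 libraries and -0.05 over the other 11. In those 11 libraries Drd1 went with Ppp1r1b (r = 0.81) and Tac1 (r = 0.78) and against Penk (r = -0.94), and Penk went against Ppp1r1b (r = -0.88) and Tac1 (r = -0.81). Adora2a went with Penk (r = 0.65), Gpr6 (r = 0.60) and Drd2 (r = 0.52) and against Tac1 (r = -0.85). These correlations are descriptions over 11 libraries of 4 groups, and the points share the tissue makeup of unstressed WT libraries 1 and 2.

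Genes whose pattern was most like the mean log2 CPM of Drd2, Adora2a and Gpr6 were looked for among genes whose log2 CPM averaged 0 or more. Over 12 libraries these included Dlk1 (Pearson r = 0.98), Prkcd (0.95), Pde1b (0.93), Nnat (0.93), Efnb3 (0.92), Prkch (0.91) and Gdpd2 (0.89). Over the 11 libraries without stressed KO library 1 none of these was among the 8 most alike, which were Mgp (r = 0.97), Gpc3 (0.95), Fmo1 (0.94), Gkap1, Stom, Il17rc (0.94 each), Slc6a13 and Hpgd (0.93 each). Slc6a13 is a meningeal marker, and meningeal markers were highest in unstressed WT library 2 at a sum of 304 CPM.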

How the data were processed

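RNA of the mPFC was sequenced in 12 libraries, 3 per group, made with a strand-keeping kit, per the labels' protocols. The authors deposited a table of estimated counts without normalisation, with a gene symbol to each line. The tools named, per the submitters' processing notes, are RSEM 1.3.1, STAR 2.7.9a, DESeq2 1.36.0 and Trim Galore 0.6.6, with build mm10. The sources used here give no annotation, filter or strand setting. The 9 members have no decimals in their counts, and Ppp1r1b overlaps 1700003D09Rik, which had at most 3 counts.

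Counts were rounded. The filter on low counts, filterByExpr of edgeR (minimum count 10, minimum total 15), left 15199 genes in 12 libraries and 15360 in the 11 without stressed KO library 1; all 9 members remained in both. CPM uses TMM factors over 12 libraries, and log2 CPM a prior count of 2. Tests were contrasts in 1 edgeR quasi-likelihood fit of 11 libraries as 4 group means (7 residual degrees of freedom, two-sided, Benjamini-Hochberg over all genes). A permutation test of 3 against 3 libraries is not given, as it cannot reach the threshold. Software was R 4.3.3, edgeR 4.0.16, limma 3.58.1 and DESeq2 1.42.0. The test was also run on simulated counts with known changes. Those were drawn as independent libraries without differences in tissue makeup, so nothing is read from that run about the calls here. The members and lists were chosen with earlier results of these data known. Named list genes are those past the threshold and up to 4 with the largest fold in stressed KO library 1, of which a part is given; single counts of other list genes were picked after their values were seen. Some genes that the rule names are not reported here. Exon lengths and overlaps come from GENCODE M21 on GRCm38, which mm10 also names.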

Additional observations from a re-analysis of the deposited data

Results flagged for a closer look

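Stressed KO library 1 enters no test above. Genes with a proper name, enough counts and at least 1 CPM in that library were ranked by its ratio to the highest of the others. Genes left out by the filter on low counts were not ranked, among them Six3 and Ccdc153, whose ratios were larger (33.8 and 21.7, against 8.52 for Dlk1). Of the 12 largest ratios ranked, 9 belonged to genes other than the members. Each of these 9 genes stood above all unstressed WT libraries. Dlk1, an imprinted membrane protein, stood at 12.6 CPM in stressed KO library 1, against at most 1.48 CPM in the other 11. Top2a, a topoisomerase of dividing cells, stood at 6.13 CPM against at most 0.920 CPM. Mki67, which marks dividing cells, stood at 5.88 CPM against at most 1.297 CPM. Clspn, which acts at replication forks, stood at 1.81 CPM against at most 0.512 CPM. Cd4, a receptor of T cells and some microglia, stood at 5.05 CPM against at most 1.23 CPM. Nts, the precursor of neurotensin, stood at 4.21 CPM against at most 1.05 CPM. Serpina9 stood at 7.17 CPM against at most 1.79 CPM. Chat stood at 1.53 CPM against at most 0.402 CPM. Spag16, a protein of cilia, stood at 1.497 CPM against at most 0.399 CPM.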

How the results depend on the processing

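With DESeq2's size factors and without a filter on low counts, the members called stayed at 4 (stress in WT), 3 (genotype without stress) and 0 (the other 3 comparisons). Of all genes, the size factors gave 3370 for stress in WT and 3635 for genotype without stress, and the fit without a filter 3157 and 3354. Without a filter the interaction called 4 genes. All 9 folds of stressed KO library 1 moved by less than the spread of the others under 3 alternatives. With either scaling 7 of 9 members passed 2-fold, and 9 passed against stressed KO libraries 2 and 3 alone, which is a looser rule. The members were chosen for this elevation, and the share of all genes was not counted under these alternatives, so nothing is read from these counts. DESeq2 called 5 members for genotype without stress and 2 for the interaction. Of all genes it called 4140 (genotype without stress), 1136 (interaction), 58 (stress in KO) and 204 (genotype with stress). With all 12 libraries, stressed KO library 1 included, 0 and 1 members were called for stress in WT and genotype without stress, against 3322 and 3529 of all genes. For stress in KO, genotype with stress and the interaction that fit called 3, 38 and 0 of all genes. With only the groups compared 0 members were called in both comparisons with unstressed WT, and 1, 2, 18 and 115 genes for stress in WT, stress in KO, genotype without and with stress. Without unstressed WT libraries 1 and 2, 0 members were called in both comparisons with unstressed WT, and of all genes 3, 9, 28, 53 and 0 in the 5 comparisons. The cause was not tested.

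Over all genes same-numbered libraries did not pair in general. Of 18 same-number pairs, 4 had a correlation of deviations over 0.1 (at most 0.36), and 5 of 12 libraries went best with their own number. In unstressed WT, stressed WT and unstressed KO, however, Ppp1r1b rose and Penk fell from library 1 to library 3. The replicate block called 5, 4 and 2 members for stress in WT, genotype without stress and the interaction, against 3183, 3386 and 473 of all genes. For stress in KO the block called 2 genes.

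Leaving out each of 11 libraries gave 0 to 5 members for stress in WT, 0 to 5 for genotype without stress and 0 to 3 for the interaction. Of all genes it gave 1 to 5999, 0 to 10, 117 to 6027, 4 to 65 and 0 to 3442 in the 5 comparisons (stress in WT, stress in KO, genotype without stress, genotype with stress, interaction).

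Signs turned only for values not called. For Pde10a with stress in WT the log2 fold change was -0.0028 with DESeq2's size factors and with DESeq2, -0.00031 with 12 libraries, -0.00094 with the groups compared and -0.16 without unstressed WT libraries 1 and 2. For Drd1 between genotypes with stress it was -0.00067 with DESeq2's size factors, -0.0060 without a filter, -0.0053 with the groups compared, -0.20 with the replicate block and -0.0017 without those 2 libraries. The block also gave Ppp1r1b -0.11 and Penk 0.022 there. Drd2 between unstressed genotypes was 0.090 without those 2 libraries. With 12 libraries, stress in KO gave Drd1 0.74, Rgs9 0.80, Pde10a 0.42 and Tac1 0.29, genotype with stress gave Pde10a 0.59, Penk 0.76 and Tac1 0.38, and the interaction gave Ppp1r1b 0.23 and Pde10a 0.42. Leaving out single libraries gave -0.11 to 0.079 for Pde10a (stress in WT). For stress in KO it gave -0.34 to 0.041 for Drd1, -0.015 to 0.62 for Adora2a, -0.051 to 0.70 for Gpr6, -0.11 to 0.057 for Rgs9 and -0.014 to 0.27 for Penk. For genotype with stress it gave -0.20 to 0.19 for Drd1, -0.062 to 0.69 for Gpr6, -0.17 to 0.22 for Ppp1r1b and -0.43 to 0.00018 for Penk.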

Other observations

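Genes of dividing cells were high in stressed KO library 1 beside the striatal genes. In a list of 18 such genes, chosen after values were seen and so not tested, 14 had enough counts and 11 of 14 were highest in that library, 6 of them at least 2-fold above all others, with a median of 2.65-fold over the others. The list summed to 100.1 CPM there and to between 67.6 and 78.2 CPM in the other 11 libraries. Ependymal cell markers, also listed after values were seen, summed to 20.2 CPM against 6.29 to 13.2 CPM, with 2 of 7 highest there. Among those with too few counts, Ccdc153 stood at 2.79 CPM against at most 0.128 CPM and Tmem212 at 1.43 against at most 0.048 CPM. Mia, also among them, stood at 0.348 CPM against at most 0.552 CPM. Markers of neural progenitors and neuroblasts, likewise listed after values were seen, summed to 252 CPM, within the range of 157 to 747 CPM. The median of the others was 213 CPM, and the highest was unstressed WT library 1.

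Genes at the other end of the scale were lowest in stressed KO library 1. Eomes, which encodes a transcription factor made by output neurons of the olfactory bulb, stood at 0.244 CPM against 1.23 to 97.2 CPM in the others, and Lgr6 at 0.870 against 2.76 to 36.6 CPM. Krt12 stood at 3.34 against 7.36 to 11.2 CPM, Tnnc1 at 8.67 against 17.8 to 33.6 CPM and Npnt at 9.96 against 19.0 to 33.7 CPM. Adam33, Mybpc1 and Tmem215 were at 1.60, 1.43 and 1.32 CPM, against at least 3.29, 2.74 and 2.53 CPM.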
